A study of Mus musculus with 12 samples.

Results

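This comparison set mouse embryonic fibroblasts (MEFs) carrying wild-type PPARγ and exposed to rosiglitazone against MEFs carrying the S273A receptor and no added ligand. It used 6 of the 12 arrays of the study, 3 in each group, chosen by their sample titles alone, and it did not use the untreated wild-type arrays as a reference. All the cells were PPARγ knockout MEFs, so the only PPARγ protein they were meant to hold was the introduced one, and all were differentiated for 6 days. The first group received wild-type PPARγ and then 1 µM rosiglitazone for 24 h. The second received S273A PPARγ, in which alanine stands in place of the serine Ser273, and was harvested without ligand. The titles call these cells mutant and the text of the series names the substitution, which was taken to be the same group. The remaining 6 arrays, untreated wild-type cells and wild-type cells with 1 µM MRL24 for 24 h, entered only the estimate of the spread and are given as levels beside some results. Receptor form and ligand both differ between the groups compared, so their parts in any difference cannot be told apart. How the receptors were introduced, whether the S273A cells received vehicle, and whether replicate arrays trace to different cultures is not stated in the labels. The p-values then measure the spread among these arrays only, and that spread may be technical. With 3 arrays a side the smallest p of an exact test is 0.1, so tests were made across all genes in 1 model.

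PPARγ is a nuclear receptor that pairs with a retinoid X receptor on DNA and, on binding a ligand, releases corepressors and recruits coactivators. In fat cells it switches on genes for fatty acid uptake, binding, storage and oxidation. Rosiglitazone is a thiazolidinedione and a full agonist. The serine that S273A removes is a phosphorylation site of the kinase Cdk5, and its phosphorylation is known to alter a limited group of fat cell genes without abolishing the response to agonists. The comparison therefore sets a ligand-activated wild-type receptor beside an unliganded receptor that cannot carry this phosphate.

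Values are array intensities on the linear scale, as deposited. Array medians lay between 296.8 and 314.9. The array of untreated wild-type replicate 2 stood apart with a first principal component score of -16.07 (25.8% of the variance), and had the highest residual SD (0.14 on the log2 scale). It is not part of the comparison, but the number of genes called rose to 1164 when it was left out of the estimate of the spread. Pparg itself read 1249, 1042 and 929.5 in S273A cells and 809, 773 and 919 with rosiglitazone, and the groups did not overlap (log2 difference -0.35, SE 0.10, adjusted p = 0.036). That call was lost without rosiglitazone replicates 1 or 2, S273A replicates 1 or 2 or MRL24 replicates 1 or 2 (adjusted p = 0.0505 to 0.159) and in 2 other alternatives (adjusted p = 0.0751 to 0.0775). Whether its probes fall in deleted or in introduced sequence was not examined, and the levels are no check of the labels. The cells are labelled as adipocytes. Of 12 adipocyte markers, 10 had a usable probe set and 6 were above the filter on low values. Adipoq, Cidec, Lep and Pck1 were not. In bulk RNA, a change in the number of differentiated cells and a change in RNA per cell cannot be told apart.

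Of 12393 genes on the array, 8675 passed the filter, a mean intensity of 132, and were tested. The call required an adjusted p (Benjamini-Hochberg, limma) under 0.05. In all, 829 genes (9.56%) were called, 465 (5.36%) higher with rosiglitazone and 364 (4.20%) higher in S273A cells. Most of the differences were small. The median size among called genes was 0.29 on the log2 scale, and 9 called genes were at least 2-fold higher with rosiglitazone while 2 were at least 2-fold lower. At 1.5-fold the counts were 51 and 17. The arrays of the groups did not overlap for 2565 genes (29.6%), of which 826 were called. The 95% interval of the difference lay within 0.5 log2 units of 0 on both sides, that is within 1.41-fold, for 7806 genes (90.0%). Each interval is for 1 gene alone and reflects the spread among these arrays only, so larger differences between the cells are not excluded. The balance of directions depended on the scaling: 56.1% of calls were higher with rosiglitazone as deposited, 44.3% after giving all arrays the same median (372 higher, 468 lower) and 46.0% after quantile normalization (423 higher, 496 lower). Leaving out rosiglitazone replicate 1 or 2 reduced the calls to 535 and 529.

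**Figure D1:**
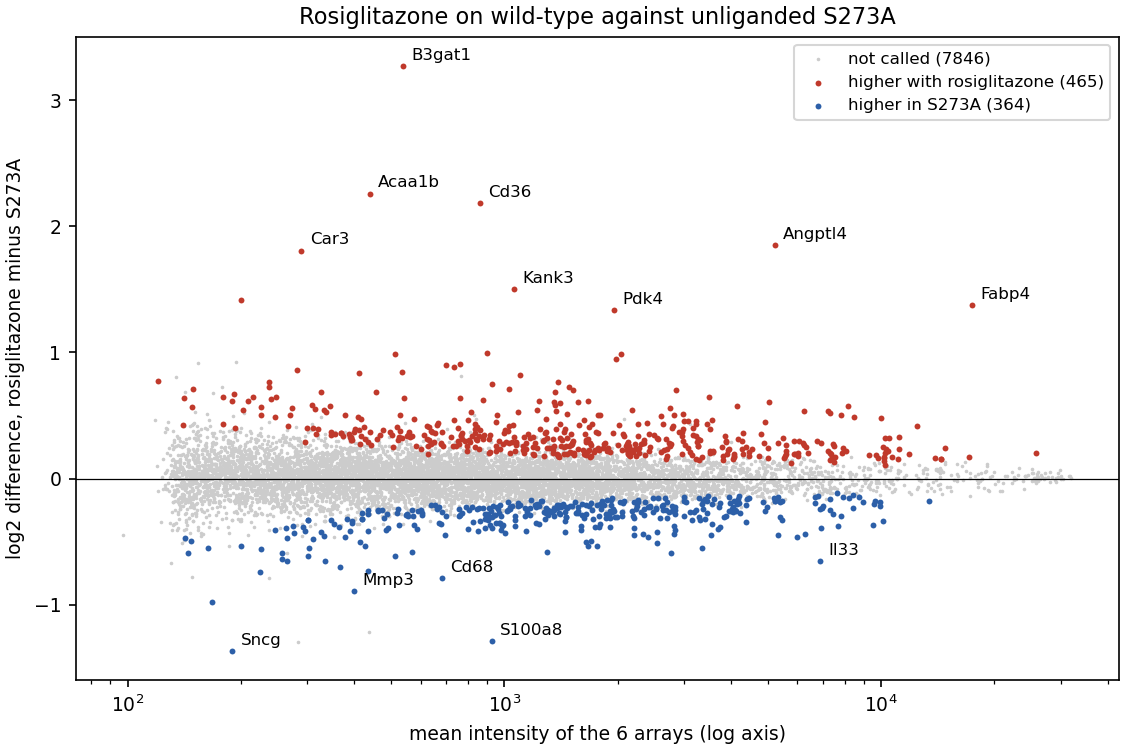
Each point is 1 tested gene, with its mean intensity over the 6 arrays on the x axis (log axis) and its log2 difference, rosiglitazone on wild-type minus S273A, on the y axis; called genes are coloured by direction and some named genes are labelled. Lipid genes such as Acaa1b (2.26), Cd36 (2.18) and Angptl4 (1.85) stand near the top below B3gat1 (3.27), and Sncg (-1.37) and S100a8 (-1.29) at the bottom.

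Genes of fatty acid uptake and handling stood out among the large differences, and every called member was higher with rosiglitazone. Cd36, a scavenger receptor and fatty acid transporter, read 278, 330.1 and 297 in S273A cells and 1442, 1448 and 1376 with rosiglitazone (log2 difference 2.18, SE 0.081, adjusted p = 5.13e-11). Every rosiglitazone array was far above every S273A array, a 4.53-fold difference. The level in untreated wild-type cells, 164 ± 13.2 (SD, n = 3), lay below both groups, so for Cd36 the S273A cells stood between untreated and rosiglitazone-exposed wild-type cells. Its second probe set gave a log2 difference of 2.10 and another, dimmer one 0.54.

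Angptl4, a secreted inhibitor of lipoprotein lipase, read 2201, 2328 and 2243 in S273A cells and 8146, 8548 and 7907 with rosiglitazone (log2 difference 1.85, SE 0.045, adjusted p = 2.36e-13). Untreated wild-type cells read 3061 ± 128, above the S273A arrays, so here the S273A level was the lower one of the unliganded groups. Fabp4, the fatty acid carrier of the fat cell cytosol, read 10156, 9702 and 9246 in S273A cells and 25237, 25308 and 24915 with rosiglitazone (log2 difference 1.37, SE 0.048, adjusted p = 3.13e-11). The S273A cells and untreated wild-type cells (9509 ± 782) were at similar levels. With rosiglitazone this probe set came near the highest intensities on the arrays (31882 to 33624), where a difference can be understated, and its other 3 probe sets gave differences of 0.63 to 1.75. Lpl, lipoprotein lipase, read 2124, 2134 and 2245 in S273A cells and 3721, 3402 and 3512 with rosiglitazone (log2 difference 0.70, SE 0.058, adjusted p = 9.54e-07), and the groups did not overlap. The list of fatty acid uptake and carrier genes had 12 tested members, of which 6 were higher, 0 lower and 11 above 0. The other called members were Fabp5, a second cytosolic carrier (0.46), and Slc27a4, a fatty acid transport protein (0.30).

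**Figure D2:**
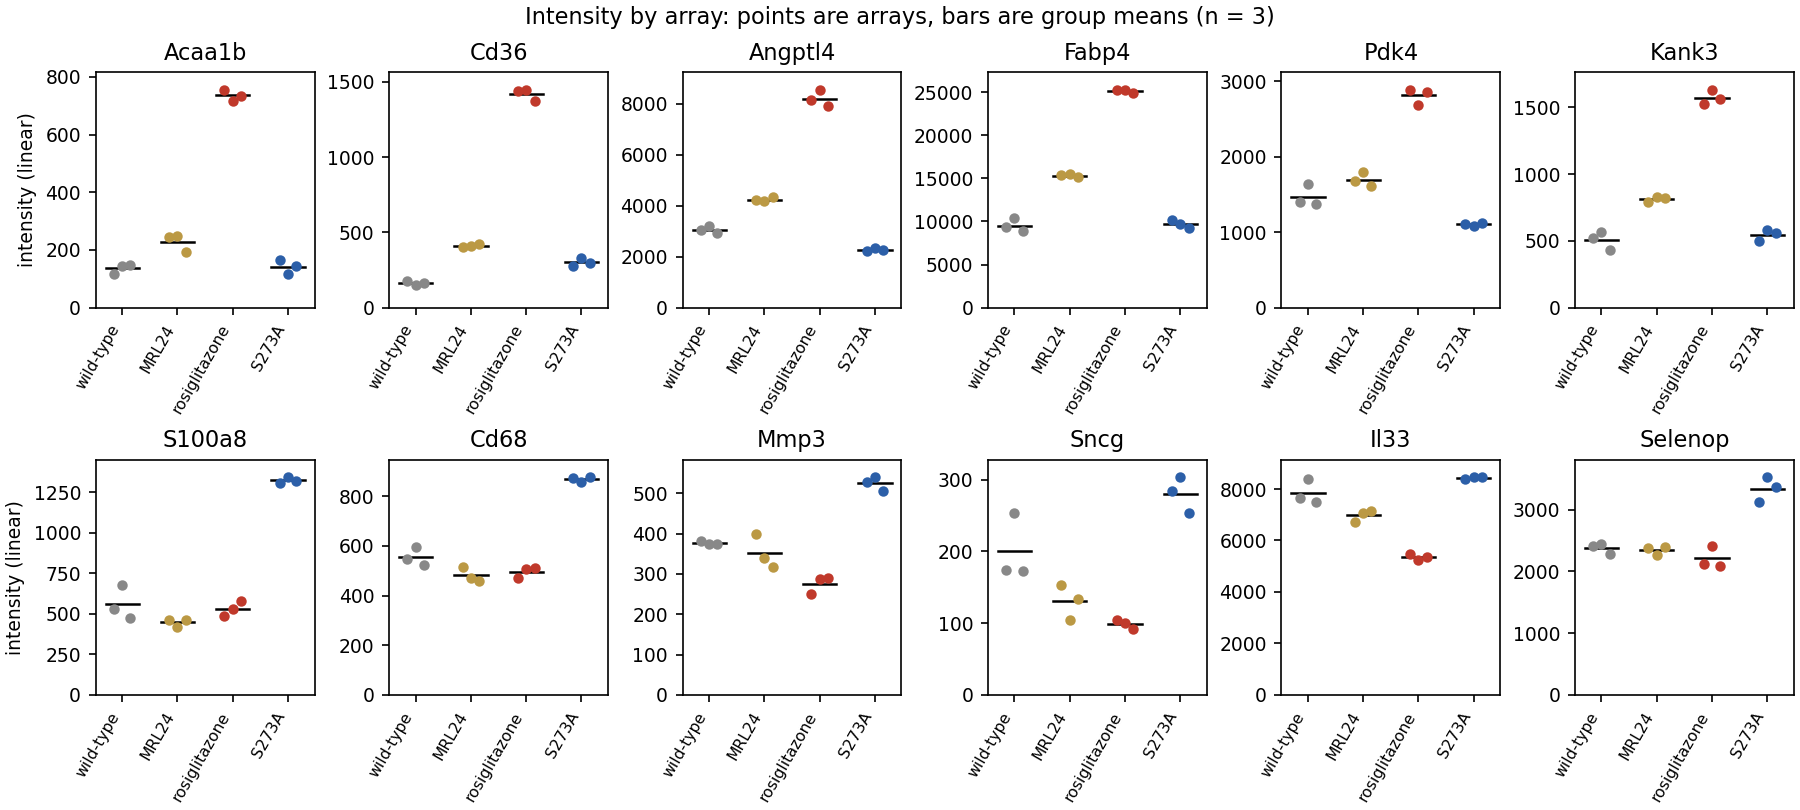
Intensity on a linear axis starting at 0 for selected genes in each array, with the 4 groups side by side; points are arrays and horizontal lines are group means. The rosiglitazone arrays of Cd36 (1376 to 1448) lie far above the S273A arrays (278 to 330.1), whereas S100a8 is the reverse, with S273A at 1304 to 1344 and rosiglitazone at 488 to 577.

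Called oxidation genes were all higher with rosiglitazone too, by smaller amounts. Of 24 tested genes of mitochondrial fatty acid oxidation, 9 were higher with rosiglitazone and 0 lower, with a median difference of 0.18 against 0.012 over all tested genes. The higher share was 37.5%, against 5.36% over all tested genes. That count was 6 to 11 when 1 array was left out. Acaa2, which catalyses the last step of the β-oxidation spiral, read 2094, 2433 and 2166 in S273A cells and 3167, 3355 and 3352 with rosiglitazone (log2 difference 0.56, SE 0.058, adjusted p = 1.13e-05). The lowest rosiglitazone array was above the highest S273A array. Hadhb, the thiolase subunit of the mitochondrial trifunctional protein, differed by 0.41 (adjusted p = 0.00015), and Acadvl, the very-long-chain acyl-CoA dehydrogenase, by 0.31 (adjusted p = 0.000777). Cpt2, which hands long-chain acyl groups to coenzyme A inside the mitochondrion, differed by 0.30 (adjusted p = 0.00784). Among uncalled members, Hadh had a difference of 0.039 with a 95% interval of -0.10 to 0.18. The peroxisomal thiolase Acaa1b had the next largest difference among tested genes after B3gat1, a gene with widely spread arrays described further on. It read 166, 116 and 146 in S273A cells and 756, 717 and 735 with rosiglitazone (log2 difference 2.26, SE 0.13, adjusted p = 1.67e-08), a 4.78-fold difference, while untreated wild-type cells (136 ± 16.2) matched the S273A level. The 26 tested peroxisome genes otherwise showed 2 more called higher, Ech1 (0.39) and Hsd17b4 (0.31), and 2 lower, the assembly factor Pex3 (-0.29) and the phytanoyl-CoA hydroxylase Phyh (-0.25). In this list 11.5% were higher and 7.7% lower, against 5.36% and 4.20% over all tested genes. The count of lower peroxisome genes was 1 without rosiglitazone replicate 1 or 3 or S273A replicate 1 and 0 without S273A replicate 2, and Hsd17b4 lost its call without rosiglitazone replicate 1 or S273A replicate 1 (adjusted p = 0.051 to 0.0607), as did Pex3 without S273A replicate 2 (adjusted p = 0.0609).

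Lipid droplet genes included Plin2, a droplet coat protein, which read 5684, 6252 and 5767 in S273A cells and 8368, 8891 and 8393 with rosiglitazone (log2 difference 0.54, SE 0.041, adjusted p = 5.89e-07), Lipa, the lysosomal acid lipase (0.43, adjusted p = 8.31e-05), and Hilpda, an inhibitor of triglyceride breakdown (0.33, adjusted p = 8.21e-06). These were 3 of 11 tested members (27.3%, against 5.36% over all tested genes). Abhd5, the activator of adipose triglyceride lipase, was called lower (-0.22), a call lost without rosiglitazone replicates 1, 2 or 3, S273A replicates 1, 2 or 3 or MRL24 replicates 1 or 2 (adjusted p = 0.0507 to 0.131). Pnpla2, that lipase itself, differed by 0.038 (95% interval -0.10 to 0.18). Synthesis genes were divided. Of 23 tested, 4 were higher, among them Acss2, which makes acetyl-CoA from acetate (0.41), Dgat2, which completes triglyceride assembly (0.38), and Scd2 (0.16). There were 3 lower, Lpin2 (-0.29), a phosphatidate phosphatase, and the chain-modifying enzymes Elovl5 (-0.28) and Fads1 (-0.27). Srebf1, a transcription factor of lipid synthesis, had a difference of 0.13 (95% interval 0.024 to 0.24) and was not called.

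At the entry of carbon into mitochondria, Pdk4, the kinase that switches off pyruvate dehydrogenase, read 1113, 1088 and 1117 in S273A cells and 2889, 2688 and 2858 with rosiglitazone (log2 difference 1.33, SE 0.066, adjusted p = 2.54e-09). Untreated wild-type cells read 1469 ± 147, between the groups. Idh3a, a subunit of the citric acid cycle isocitrate dehydrogenase, read 1298, 1372 and 1278 in S273A cells and 2019, 2162 and 1896 with rosiglitazone (log2 difference 0.61, SE 0.060, adjusted p = 6.03e-06). Pyruvate carboxylase, Pcx, differed by 0.31 (adjusted p = 0.00518). Of the 30 tested genes of the cycle and pyruvate metabolism, 5 were higher and 2 lower, the latter being Sdhd (-0.24) and Idh3b (-0.15). These were 16.7% and 6.7%, against 5.36% and 4.20% over all tested genes. The higher count was 3 without rosiglitazone replicate 1. Without any one of the rosiglitazone arrays, S273A replicate 1 or 2, or MRL24 replicate 1 or 2, the lower count was 0, and it was 1 without S273A replicate 3, untreated wild-type replicate 1 or MRL24 replicate 3. Mdh1 and Mdh2, the malate dehydrogenases, differed by 0.031 and 0.012.

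Over the whole list of agonist targets, 13 of 26 tested members were higher with rosiglitazone, 0 were lower (1 without untreated wild-type replicate 2) and 23 had a difference above 0. The median was 0.22. These genes are known targets of PPARγ agonists, and earlier results on the same arrays were known when they were listed, so the direction is a description of how far the liganded wild-type cells stood from the S273A cells. Adipor2 and Vldlr, also in the list, differed by -0.006 and 0.018, with 95% intervals of -0.085 to 0.072 and -0.070 to 0.11.

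The letters in front of these genes were searched for a PPAR response element, here the half-site AGGTCA, 1 base, and AGGTCA again, on both strands of the 250 bases before each RefSeq gene start (GRCm38.p6). A window was found for 7034 of the 8675 tested genes. With every letter matching, 3 windows (0.0426%) held the element, none of them before a called gene. With up to 1 letter differing, 31 windows (0.441%) held it, 1 of 371 (0.27%) before genes higher with rosiglitazone and 0 of 297 before genes lower. With up to 2 letters differing, a setting chosen after results had been seen, 213 windows (3.03%) held it, against 17 of 371 (4.58%) before genes higher with rosiglitazone and 10 of 297 (3.37%) before genes lower. Of the 15 windows of lipid genes called higher, 3 held a match at that looser setting, and 0 at the stricter ones. They are shown because they belong to genes described here. They lie before Cd36 at chr5:17835939-17835967, before Plin2 at chr4:86670264-86670292 and before Etfa, an electron carrier of β-oxidation called higher (0.29), at chr9:55512300-55512328. All are written 5′ to 3′ along the plus strand, opposite to the direction in which the genes are transcribed, with the half-sites in capitals.
Cd36: atccaagtAAGTCAgAGGCCAgagaacca
Plin2: tctgacttAGGTCAgGGGTCCtgaaagct
Etfa: ttgggagtAGGGCAaAGGTAAgggtgtgc
The matches lie, at their end farthest upstream, 63 bases before the start for Cd36, 225 for Plin2 and 77 for Etfa. Each differs from the element at 2 letters, and a match of letters does not show binding. Fabp4 and Angptl4 had no window here.

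The genes that the study names as responding to the phosphorylation of Ser273 differed in both directions. They were chosen by the study on these samples, so their direction is not independent evidence. Of 17, 15 were on the array and 13 were tested, with 6 higher with rosiglitazone, 4 lower and 3 not called. Of the tested ones 46.2% were higher and 30.8% lower, against 5.36% and 4.20% over all tested genes. Car3, carbonic anhydrase 3, read 128, 146 and 90.2 in S273A cells and 482, 424 and 467 with rosiglitazone (log2 difference 1.81, SE 0.15, adjusted p = 1.42e-06). Untreated wild-type cells read 73.3 ± 10.3, the lowest of these groups. A second probe set of Car3 gave 0.38. Peg10, an imprinted retrotransposon-derived gene, read 117, 87.7 and 102 in S273A cells and 304, 276 and 313 with rosiglitazone (log2 difference 1.41, SE 0.14, adjusted p = 6.03e-06), with untreated wild-type cells at 88.6 ± 7.2. Without the rosiglitazone arrays, Car3 and Peg10 averaged under the filter of 132. Both were tested only because of the group where they are high, so their calls add no support for the list. Acly, which makes cytosolic acetyl-CoA from citrate, read 3693, 4302 and 3993 in S273A cells and 6059, 6214 and 5996 with rosiglitazone (log2 difference 0.61, SE 0.064, adjusted p = 1.24e-05). Taking the mean over its probe sets, of which several are dim, ended that call (adjusted p = 0.114). Aplp2, a relative of the amyloid precursor protein, differed by 0.49 (adjusted p = 3.82e-05), and its other 4 probe sets by 0.65 to 0.98. Cd24a, a surface glycoprotein of adipocyte progenitors, differed by 0.29 (adjusted p = 0.00115), and Nr3c1, the glucocorticoid receptor, by 0.16 (adjusted p = 0.0478). The Nr3c1 call was lost without rosiglitazone replicates 1, 2 or 3, S273A replicates 1, 2 or 3, untreated wild-type replicates 1 or 3 or MRL24 replicates 1 or 2 (adjusted p = 0.0522 to 0.173) and in 4 other alternatives (adjusted p = 0.0547 to 0.088).

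The 4 lower members stood highest in S273A cells. Selenbp1, a selenium-binding protein, read 3534, 4223 and 4228 in S273A cells and 3019.5, 3245 and 3045 with rosiglitazone (log2 difference -0.36, SE 0.065, adjusted p = 0.0018), while untreated wild-type cells read 2911 ± 111. Nr1d2, a clock repressor, read 1081, 985 and 1011 in S273A cells and 868, 819.5 and 799 with rosiglitazone (log2 difference -0.30, SE 0.068, adjusted p = 0.00946). The call of Nr1d2 was lost on the mean of its probe sets (adjusted p = 0.452). Rarres2, which encodes the adipokine chemerin, read 2166, 2223 and 2208 in S273A cells and 1678, 1782 and 1862 with rosiglitazone (log2 difference -0.31, SE 0.085, adjusted p = 0.0316), and lost its call without rosiglitazone replicates 1 or 2 or S273A replicates 1, 2 or 3 (adjusted p = 0.0661 to 0.123) and in 3 other alternatives (adjusted p = 0.0674 to 0.517). Cyp2f2, a cytochrome P450, read 863, 892 and 813 in S273A cells and 737, 745 and 704 with rosiglitazone (log2 difference -0.23, SE 0.066, adjusted p = 0.0394), and lost its call without rosiglitazone replicates 1, 2 or 3, S273A replicates 1 or 2 or MRL24 replicates 1, 2 or 3 (adjusted p = 0.0542 to 0.143). The number of lower members was 2 without rosiglitazone replicate 1 or 2 or S273A replicate 1 or 2.

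For the 3 uncalled members the intervals were narrow. Nr1d1, the paralogue of Nr1d2, read 2630.4, 2755 and 2684 in S273A cells and 2642, 2673 and 2586 with rosiglitazone, with overlapping groups and a difference of -0.030 (95% interval -0.17 to 0.11). Both groups were above untreated wild-type cells (1877 ± 166). Txnip, an inhibitor of thioredoxin, differed by -0.081 (95% interval -0.16 to -0.003, adjusted p = 0.202), again with untreated wild-type cells lower (5929.9 ± 94.0). Ddx17, an RNA helicase and coactivator, differed by 0.008 (95% interval -0.11 to 0.12). Adipoq and Cidec were below the filter. Adipoq, the adipokine adiponectin, read 90.9, 106 and 94.6 in S273A cells and 143, 140.2 and 134 with rosiglitazone, an adjusted p of 0.256 when all genes were tested. Cidec, a droplet fusion protein, read 2.9, 14.1 and 5.1 in S273A cells and 84.7, 88.6 and 119 with rosiglitazone, and was called in that test (adjusted p = 0.00034).

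**Figure D3:**
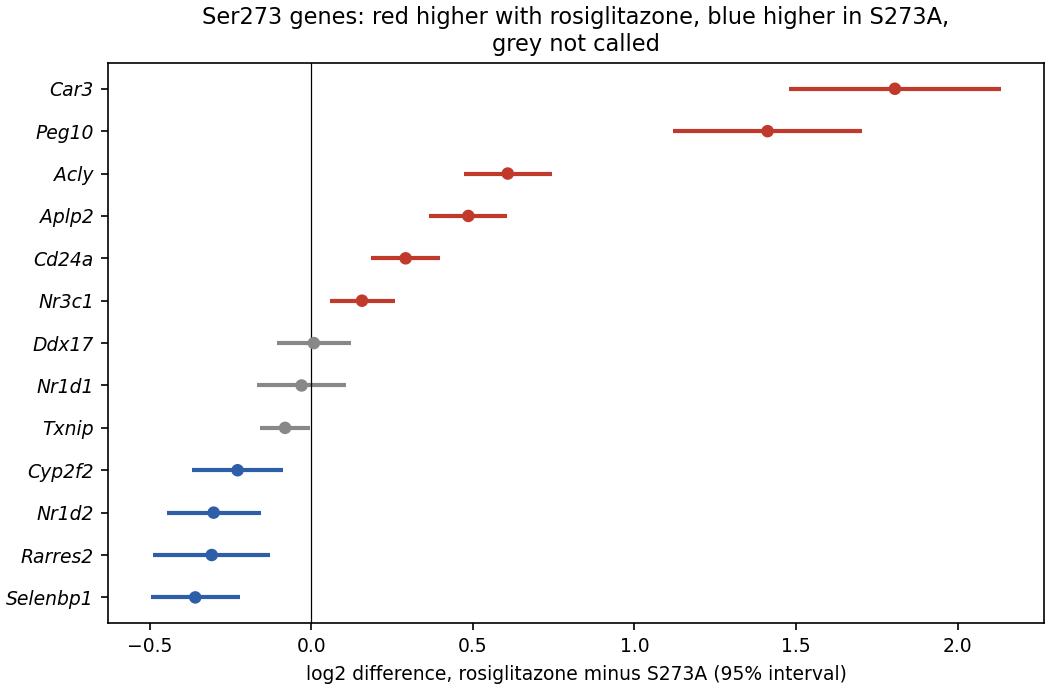
Log2 difference, rosiglitazone on wild-type minus S273A, with its 95% interval for each of the 13 Ser273 genes tested, red where called higher with rosiglitazone, blue where called higher in S273A and grey where not called; values right of 0 are higher with rosiglitazone. Car3 (1.81) and Peg10 (1.41) lie far to the right, Selenbp1 (-0.36) to the left, and the intervals of Nr1d1, Txnip and Ddx17 stay close to 0.

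Of 13 tested genes in the list of kinases and readers of the Ser273 site, 2 were higher with rosiglitazone and 0 lower. The higher share was 15.4%, against 5.36% over all tested genes. The called genes were the MEK kinase Map2k1 (0.27, adjusted p = 0.000704) and the calpain Capn2 (0.24, adjusted p = 0.00207). Cdk5 and Thrap3, the latter a protein that binds PPARγ phosphorylated at this site, were looked at after their values were seen. Cdk5 differed by -0.24 (95% interval -0.48 to 0.007) and Thrap3 by -0.013 (95% interval -0.14 to 0.11), and neither was called. Of 21 receptors and coregulators, Pparg alone was called. Among uncalled ones with the highest intensity, Prmt2 differed by 0.095 and Hdac3 by -0.058.

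Outside these lists, the genes with the largest differences upward included Kank3, an ankyrin-repeat protein of the cytoskeleton, which read 499.8, 579 and 558 in S273A cells and 1526, 1631 and 1560.5 with rosiglitazone (log2 difference 1.502, SE 0.085, adjusted p = 1.39e-08); its second probe set gave 1.58. Pde1b, a cyclic nucleotide phosphodiesterase, read 1339, 1365 and 1327 in S273A cells and 2617, 2600.4 and 2594 with rosiglitazone (log2 difference 0.95, SE 0.047, adjusted p = 2.54e-09). Sprr1a, a cornified envelope protein, read 1364, 1331 and 1398 in S273A cells and 2589.6, 2703 and 2877 with rosiglitazone (log2 difference 0.99, SE 0.064, adjusted p = 8.18e-08). In these genes the 3 rosiglitazone arrays lay close together and far above the S273A arrays, but separate groups were a condition for naming them. Parm1 (1.00), Tmem158 (0.99) and Las1l (0.91), a factor of ribosome assembly, were also among them. The call of Tmem158 was lost on the mean of its probe sets (adjusted p = 0.0544). B3gat1, a glucuronyltransferase, had the largest fitted difference (3.27) but the widest spread, reading 168, 119 and 1.0 in S273A cells and 1154, 1603 and 184 with rosiglitazone. The call (adjusted p = 0.0473) was lost in 12 of 24 alternatives, among them without rosiglitazone replicates 1 or 2, S273A replicates 2 or 3, untreated wild-type replicate 3 or MRL24 replicates 1, 2 or 3 (adjusted p = 0.0511 to 0.207), and its other probe sets differed by -0.040 and 0.18. Zfpm2, a cofactor of GATA factors, was called at 0.90 (adjusted p = 0.039) with a second probe set at -0.062, and lost its call without rosiglitazone replicates 1, 2 or 3 or S273A replicates 1, 2 or 3 (adjusted p = 0.0755 to 0.124) and in 3 other alternatives (adjusted p = 0.0969 to 0.105).

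For some of the genes higher in S273A cells, the other 3 groups read close together. S100a8, a calcium-binding protein abundant in neutrophils, read 1304, 1344 and 1321 in S273A cells and 488, 532 and 577 with rosiglitazone (log2 difference -1.29, SE 0.10, adjusted p = 6.51e-07), 2.45-fold higher in S273A cells. Untreated wild-type cells (558 ± 105) and MRL24-exposed cells (447 ± 25.3) were near the rosiglitazone level, so S273A cells were the high group. Cd68, a lysosomal glycoprotein of macrophages, read 875, 857 and 878 in S273A cells and 472, 507 and 509.6 with rosiglitazone (log2 difference -0.79, SE 0.070, adjusted p = 1.98e-06), and untreated wild-type cells (556 ± 37.0) were again near the rosiglitazone level. Selenop, a secreted selenium carrier, followed the same order at 3341 ± 203 in S273A cells, 2209 ± 182 with rosiglitazone and 2380.5 ± 80.6 in untreated wild-type cells (log2 difference -0.59, SE 0.061, adjusted p = 1.09e-05). The ankyrin-repeat gene Ankrd33b differed by -0.61 with untreated cells at 409.9 ± 27.8, against 622 ± 17.0 in S273A cells.

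Markers of other cell types are given beside these genes. Of 13 macrophage markers, 12 had a probe set and 5 were tested. Cd68 and Cd14 were lower with rosiglitazone, and Adgre1 (0.01), Csf1r (0.067) and Mrc1 (0.16) were not called. The call of Cd14 (-0.29, adjusted p = 0.0141) was lost without rosiglitazone replicates 1 or 2 (adjusted p = 0.0558 to 0.0742). Tyrobp, Ptprc, Itgam, Lyz1, Lyz2, Cd163 and Fcgr1 were below the filter. The summed intensity of the list was 4115 to 4297 on the S273A arrays, 3621 to 3959 with rosiglitazone and 3469 to 3863 in untreated wild-type cells. Of 14 neutrophil and mast cell markers, 5 were tested, with S100a8 lower and the tryptase Tpsab1 higher (0.84, adjusted p = 1.69e-05). Ngp (0.19), Tpsb2 (0.05) and Cpa3 (-0.05) were not called. The neutrophil and mast cell list summed to 2673 to 2743 in S273A cells and 2164 to 2293 with rosiglitazone. The sums include Cd68 and S100a8 themselves, so they do not describe the other members of the lists. The part of such cells in the result was not tested.

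Other genes high in S273A cells were lowest with rosiglitazone, with untreated cells between or near S273A. Sncg, γ-synuclein, read 284, 304 and 254 in S273A cells and 104, 100.1 and 92.2 with rosiglitazone (log2 difference -1.37, SE 0.16, adjusted p = 3.68e-05), with untreated wild-type cells at 200.1 ± 46.5. Mmp3, the matrix protease stromelysin, read 529, 540.4 and 504 in S273A cells and 249.8, 287 and 291 with rosiglitazone (log2 difference -0.89, SE 0.090, adjusted p = 9.38e-06), and untreated cells read 377 ± 5.0. The alarmin cytokine Il33 read 8370.1, 8469 and 8452 in S273A cells and 5467, 5232 and 5350.1 with rosiglitazone (log2 difference -0.66, SE 0.043, adjusted p = 9.38e-08). Untreated cells (7854 ± 479) were close to the S273A level, as they were for the cytokine Tslp, which read 342, 348 and 294 in S273A cells and 176, 204 and 227 with rosiglitazone (log2 difference -0.66, SE 0.11, adjusted p = 0.00117). Peli2, an E3 ubiquitin ligase of Toll-like receptor signalling, differed by -0.70 (adjusted p = 5.38e-05), Trp53inp2, a factor of autophagy, by -0.65 (adjusted p = 0.000256), and the receptor phosphatase Ptprg by -0.73 (adjusted p = 0.00261). The basophil protease Mcpt8 (-0.98), Echdc3 (-0.62) and Prxl2a (-0.64) were also lower. Prxl2a lost its call on the mean of its probe sets (adjusted p = 0.194). Dgkq, a diacylglycerol kinase, was called at -0.74, with 1 S273A array at 443 and the others at 210.3 and 217. It lost its call without rosiglitazone replicates 1, 2 or 3, S273A replicate 3 or MRL24 replicates 1, 2 or 3 (adjusted p = 0.0583 to 0.169) and in 4 other alternatives (adjusted p = 0.0575 to 0.107).

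Most of the called matrix genes were higher with rosiglitazone than in S273A cells. Of 37 tested matrix and fibroblast genes, 15 were higher and 2 lower, with a median of 0.13. These were 40.5% and 5.4%, against 5.36% and 4.20% over all tested genes. Among the 17 collagen genes of the list, 9 were higher and 0 lower, with differences from -0.20 to 0.54. Postn, the matrix protein periostin, read 271, 248 and 219.5 in S273A cells and 429, 395 and 389.7 with rosiglitazone (log2 difference 0.69, SE 0.084, adjusted p = 6.03e-05). Untreated wild-type cells read 405 ± 3.8, the rosiglitazone level, so S273A cells were the low group. Col15a1, a basement membrane collagen, read 1015, 1047 and 918 in S273A cells and 1424, 1459 and 1472 with rosiglitazone (log2 difference 0.54, SE 0.060, adjusted p = 2.07e-05), with untreated cells at 1075 ± 29.1, nearer the S273A level. Fbln5, which organises elastic fibres, differed by 0.44 (adjusted p = 0.000906) and Col1a1, the main chain of type I collagen, by 0.42 (adjusted p = 0.000423). The lower genes were Fbln1 (-0.34) and Tnc (-0.19), a count that was 0 without rosiglitazone replicate 1 or 3 or S273A replicate 2, 1 without rosiglitazone replicate 2 or MRL24 replicate 2, and 5 without untreated wild-type replicate 2. Fn1, fibronectin, differed by -0.027 (95% interval -0.094 to 0.039) and Bgn, biglycan, by 0.029 (95% interval -0.048 to 0.11). Both read near the highest intensities on the arrays, where a difference can be understated. The fibroblast marker list summed to 110418 to 116995 in S273A cells and 117806 to 123563 with rosiglitazone.

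Proteases and their inhibitors went both ways. Mmp13, collagenase 3, read 1166, 1187 and 1121 in S273A cells and 2006, 1912 and 1763 with rosiglitazone (log2 difference 0.70, SE 0.056, adjusted p = 7.05e-07), opposite to Mmp3. Timp3, an inhibitor of metalloproteinases held in the matrix, was higher by 0.40 (adjusted p = 0.000112) and the protease Adamts1 by 0.31 (adjusted p = 0.00255). Mmp14 (0.19) completed the 4 higher of 15 tested (26.7%, against 5.36% over all tested genes), and Timp1 (-0.10, adjusted p = 0.0511) was not called. The CCN growth regulators Ccn1 (0.26, adjusted p = 0.000179) and Ccn2 (0.22, adjusted p = 0.00931) were higher, 2 of the 3 called among 20 tested cytoskeletal and CCN genes. The other was the integrin chain Itga5 (0.18), whose call was lost without rosiglitazone replicates 2 or 3, S273A replicates 1 or 3 or MRL24 replicates 1 or 2 (adjusted p = 0.0545 to 0.152) and in 6 other alternatives (adjusted p = 0.052 to 0.101). Without untreated wild-type replicate 2, 7 genes of this list were called higher and 1 lower.

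Genes of the response to low oxygen were 6 higher and 0 lower of 21 tested, with 1 lower without untreated wild-type replicate 2 or 3. The higher share was 28.6%, against 5.36% over all tested genes. Hif1a, the oxygen-regulated transcription factor, read 5956, 5962 and 6073 in S273A cells and 9018, 8678 and 8126 with rosiglitazone (log2 difference 0.52, SE 0.048, adjusted p = 3.58e-06), with untreated wild-type cells at 6999.5 ± 461, between the groups. Vegfa, the main angiogenic growth factor, differed by 0.30 (adjusted p = 0.000504) and Slc16a3, the lactate exporter listed with glycolysis, by 0.51 (adjusted p = 1.96e-06). For Slc16a3, untreated cells (3517 ± 132) matched rosiglitazone (3510.1 ± 22.6) and S273A cells were low (2459 ± 114). The glycolytic enzymes Pgk1 and Ldha differed by 0.045 and 0.029. Ndrg1 and Ero1a, also in the low-oxygen list, differed by 0.010 and 0.043 with 95% intervals of -0.066 to 0.087 and -0.039 to 0.12. These 4 genes read in the upper range of the arrays, where a difference can be understated. Interferon response genes showed 5 higher (17.9%) and 0 lower of 28 tested, with 25 differences above 0 and a median of 0.16. Irgm1, an interferon-induced GTPase, read 338, 331 and 365 in S273A cells and 434, 461 and 476 with rosiglitazone (log2 difference 0.39, SE 0.078, adjusted p = 0.00383). Trim25, which activates the RNA sensor RIG-I, differed by 0.35 (adjusted p = 0.00108) and Ifit3, an interferon-induced antiviral protein, by 0.32 (adjusted p = 0.000753). The count was 3 without rosiglitazone replicate 3 or S273A replicate 2. Ifit1 (0.29), another of the called genes, lost its call in 13 of 24 alternatives. The summed intensity of the list was 18792 to 20200 on the S273A arrays and 21336 to 22360 with rosiglitazone. Untreated wild-type cells summed to 22361 to 24234 and MRL24-exposed cells to 21551 to 21660, so S273A cells were the low group. Irf1 differed by 0.033 (95% interval -0.098 to 0.16).

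Several lists of stress and inflammation genes held more members lower with rosiglitazone than higher, while the heat shock list held more higher. Of 24 inflammatory genes tested, 5 were lower (20.8%, against 4.20% over all tested genes) and 1 higher (4.2%, against 5.36%). Lcn2, the siderophore-binding adipokine lipocalin 2, read 6183, 6206 and 6041 in S273A cells and 4300.1, 4461 and 4752 with rosiglitazone (log2 difference -0.45, SE 0.049, adjusted p = 1.8e-05), and Saa3, an acute-phase protein, read 10708, 10727 and 10617 in S273A cells and 9244, 9015 and 9368 with rosiglitazone (log2 difference -0.21, SE 0.033, adjusted p = 0.00059). The S273A arrays of both lay above all the rosiglitazone arrays, and untreated wild-type cells were higher still (6566 ± 447 and 11891 ± 310.4). The chemokines Cxcl5 (-0.33), Cxcl1 (-0.18) and Ccl2 (-0.15) were the other lower genes, and the growth factor Csf2 the higher one (0.34). The lower count was 2 without rosiglitazone replicate 2 or S273A replicate 1 or 3, and 3 without rosiglitazone replicate 1 or S273A replicate 2. It was also 3 without the filter or without the trend of spread on intensity. Csf2 lost its call without rosiglitazone replicates 1 or 3 or S273A replicates 1, 2 or 3 (adjusted p = 0.0515 to 0.153) and in 4 other alternatives (adjusted p = 0.0562 to 0.0636), and Cxcl5 without rosiglitazone replicates 2 or 3, S273A replicates 1 or 3 or MRL24 replicates 1 or 2 (adjusted p = 0.0507 to 0.172) and in 2 other alternatives (adjusted p = 0.0686 to 0.0837). Nfkbia, an inhibitor of NF-κB, differed by 0.074 (95% interval -0.003 to 0.15). The other adipokine lower with rosiglitazone, beside Lcn2 and Rarres2, was the retinol carrier Rbp4 (-0.38, adjusted p = 0.00274), and Cebpd, an early adipogenic factor, differed by -0.45 (adjusted p = 0.000147).

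Antioxidant genes showed 7 lower and 2 higher of 28 tested. Gstm1, a glutathione transferase, read 3345, 3107 and 3260.0 in S273A cells and 2361, 2364 and 2572 with rosiglitazone (log2 difference -0.41, SE 0.057, adjusted p = 0.000192), and its relative Gstm2, whose probes may share sequence with it, differed by -0.29 (adjusted p = 0.00397). Nqo1 (-0.29), Hmox1 (-0.26) and Nfe2l2 (-0.18), the regulator of this group, were also called lower. The lower count was 3 without rosiglitazone replicate 3 or S273A replicate 2 and 4 without rosiglitazone replicate 1 or 2 or S273A replicate 3. It was also 4 without the filter or without the trend of spread on intensity. The higher genes were Gsr (0.31), glutathione reductase, and Srxn1 (0.24), a count that was 0 without rosiglitazone replicate 2 and 1 without rosiglitazone replicate 1, S273A replicate 1 or 3, or MRL24 replicate 1 or 2.

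Of 17 p53 target genes, 3 were lower and 0 higher, with 1 higher without untreated wild-type replicate 2. The lower share was 17.6%, against 4.20% over all tested genes. Gadd45a, a DNA damage-inducible regulator of growth arrest, read 3118, 2980.3 and 2898 in S273A cells and 2214, 1955 and 2125 with rosiglitazone (log2 difference -0.51, SE 0.059, adjusted p = 3.09e-05), and the p53-induced nuclear protein Trp53inp1 differed by -0.30 (adjusted p = 0.00583). Cdkn1a, the main p53 target of cell cycle arrest, differed by 0.096 (adjusted p = 0.0793). Of 29 unfolded protein response genes, 3 were lower and 1 higher, the latter the transcription factor Xbp1 (0.21, not called on the mean of its probe sets, adjusted p = 0.0804), with 2 higher without untreated wild-type replicate 2. In this list 10.3% were lower and 3.4% higher. Ddit3, the stress-induced factor CHOP, read 8284, 7848 and 7499 in S273A cells and 5791, 6003 and 6197 with rosiglitazone (log2 difference -0.39, SE 0.054, adjusted p = 0.000184), and Atf3 differed by -0.37 (adjusted p = 0.00411). The chaperones Hsp90b1 and Calr differed by 0.12 and 0.079 and were not called. Cryab, the small heat shock protein αB-crystallin, differed by -0.47 (adjusted p = 0.000921), one of 2 lower and 4 higher among 16 heat shock genes. The higher count was 1 or 2 without any one rosiglitazone array and 0 without S273A replicate 3, and the lower count was 1 without rosiglitazone replicate 1 or 2, S273A replicate 1 or 2 or MRL24 replicate 2.

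Insulin signalling and glucose transport genes showed no call in limma's test. All 27 genes of the list on the array were tested, 2 of them had an unadjusted p under 0.05, and the 95% interval lay within 0.5 log2 units of 0 for 26. Over all tested genes, 9.56% were called and 90.0% had an interval within these bounds. Slc2a1, the basal glucose transporter, differed by -0.010 (95% interval -0.13 to 0.11) and Rhoq, a GTPase of transporter traffic, by -0.10 (95% interval -0.20 to -0.010). The insulin-responsive transporter Slc2a4 and the adaptor Irs1 were singled out after their values were seen. Slc2a4 differed by -0.031 (95% interval -0.33 to 0.27). Irs1 read lower on every S273A array than on any rosiglitazone array, with a difference of 0.30 (95% interval 0.064 to 0.54, adjusted p = 0.11). Groups without overlap occurred for 6 of the 27 genes of this list and for 29.6% of all tested genes. Taking the mean over probe sets, or leaving out the trend of spread on intensity, gave 1 call in this list.

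Genes of large cellular machines also mostly differed little, as did most tested genes. Over all tested genes, 90.0% had intervals within 0.5 log2 units of 0, and 9.56% were called. Of 64 respiratory chain genes, 62 had such intervals, and the median difference was -0.02. Cytochrome c, Cycs, stood apart within the list, reading 6609, 6359.9 and 6470.3 in S273A cells and 8924, 9078 and 9596 with rosiglitazone (log2 difference 0.50, SE 0.076, adjusted p = 0.000432), and its other 2 probe sets gave 0.59 and 0.63. The other calls were Atp5g1 (0.30), lost without rosiglitazone replicates 1, 2 or 3 or S273A replicates 2 or 3 (adjusted p = 0.0851 to 0.127) and in 3 other alternatives (adjusted p = 0.0658 to 0.0746), and Ndufs4 (-0.24), lost without rosiglitazone replicates 1 or 2 or S273A replicates 1 or 2 (adjusted p = 0.0677 to 0.0993) and in 2 other alternatives (adjusted p = 0.0593 to 0.686). Without untreated wild-type replicate 2 the list had 5 higher and 4 lower. Mitochondrial ribosome genes had 0 higher and 2 lower of 65, and 64 intervals lay within the same bounds. Of the lower ones, Mrpl33 (-0.32) lost its call without rosiglitazone replicates 1 or 2 or S273A replicates 1, 2 or 3 (adjusted p = 0.0631 to 0.11) and in 3 other alternatives (adjusted p = 0.0607 to 0.7), and Mrps18b (-0.23) without rosiglitazone replicate 1 or S273A replicate 1 (adjusted p = 0.059 to 0.0768). The lower count was 4 without untreated wild-type replicate 2. All 38 proteasome genes had such intervals, with Psmd6 (0.37) higher and Psmd8 (-0.28) and Psmd11 (-0.14) lower. Psmd11 lost its call without rosiglitazone replicates 1 or 3, S273A replicates 1, 2 or 3, untreated wild-type replicate 1 or MRL24 replicates 1, 2 or 3 (adjusted p = 0.0507 to 0.158) and in 4 other alternatives (adjusted p = 0.0615 to 0.103), and the higher count was 3 without untreated wild-type replicate 2. Of 11 thermogenic genes, Cited1, a marker of beige adipocytes, was called and read 477, 522 and 536 in S273A cells and 882, 949 and 1039 with rosiglitazone (log2 difference 0.88, SE 0.11, adjusted p = 0.000112). Dio2 differed by 0.028 (95% interval -0.069 to 0.12). Cox7a1 (-0.36) and Tbx1 (0.05) were also not called, and Ucp1 and Cidea were below the filter. This list had 1 gene called lower without untreated wild-type replicate 1, replicate 2 or all untreated wild-type arrays. The same count came from array weights and from the fit to the 6 arrays alone. Of 44 mitotic genes, 2 were higher (4.5%) and 1 lower (2.3%), no more than the 5.36% and 4.20% over all tested genes. Rrm2, a subunit of ribonucleotide reductase, was higher by 0.53 (adjusted p = 0.000212), and so was the proliferation marker Mki67 (0.32, adjusted p = 0.0181), whose call was lost without rosiglitazone replicates 1, 2 or 3 or S273A replicate 3 (adjusted p = 0.0506 to 0.0847). Cdt1, a replication licensing factor, differed by -0.38 (adjusted p = 0.000687), with no call and a difference of 0.032 on the mean of its probe sets (adjusted p = 0.922). Pcna differed by 0.022 (95% interval -0.083 to 0.13).

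**Figure D4:**
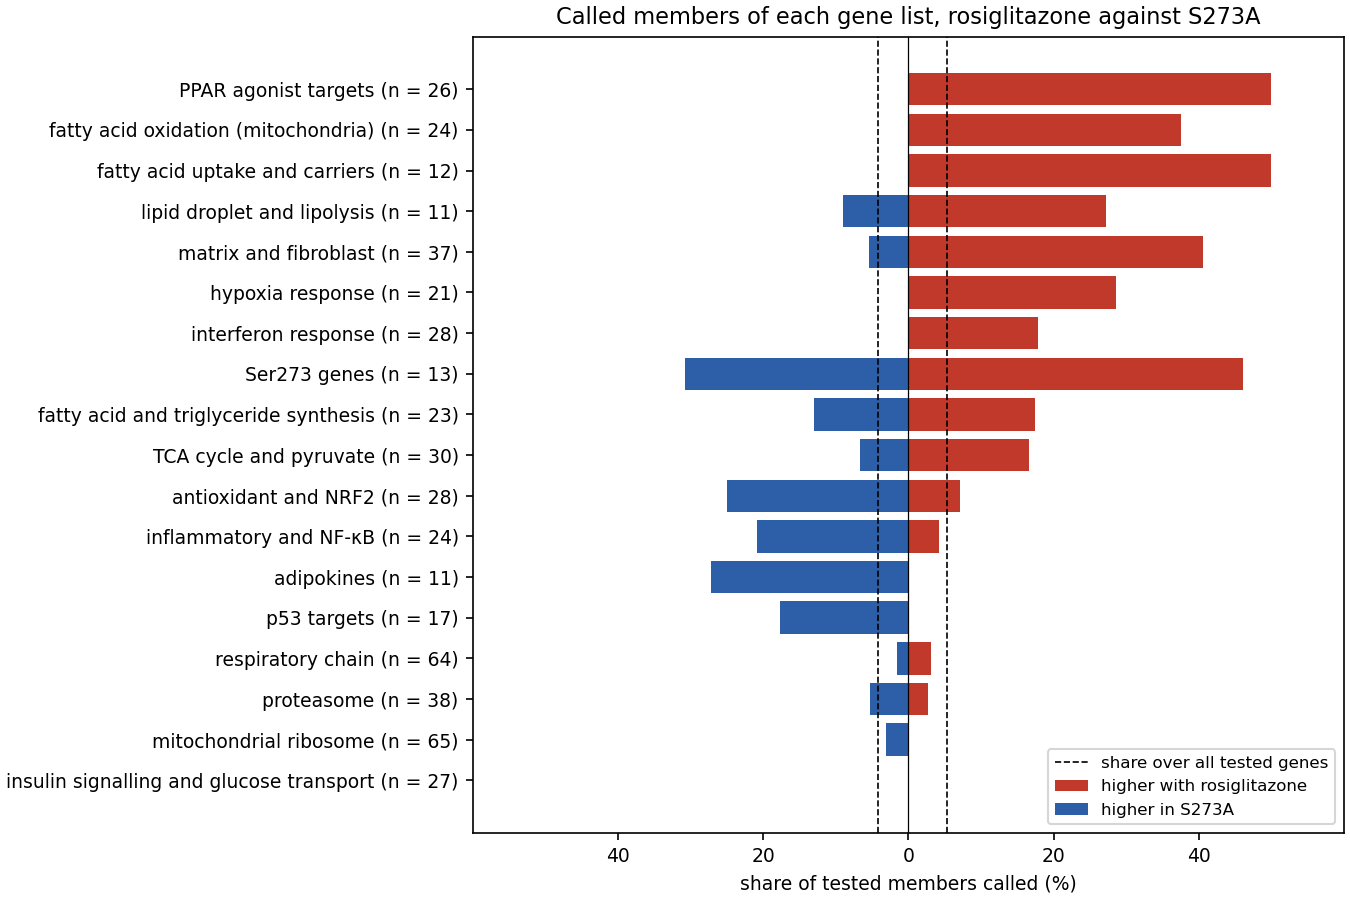
Percentage of the tested members of each gene list called higher with rosiglitazone (right of 0) and lower (left of 0), with the percentages over all tested genes (5.36 and 4.20) as dashed lines. The agonist target and uptake lists reach 50% to the right, and the insulin signalling list has no bar.

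The glucocorticoid list held 3 higher and 3 lower of 18 tested (6 higher without untreated wild-type replicate 2) and the clock list 2 higher and 1 lower of 17 (1 higher without any one of the 6 arrays compared). These were 16.7% each way for the glucocorticoid list and 11.8% and 5.9% for the clock list. Over all tested genes, 5.36% were higher and 4.20% lower. Tsc22d3, the glucocorticoid-induced leucine zipper, was called at 0.47 on its brightest probe set, but its other probe sets gave -0.32 and -0.33, so its direction depends on the probe set. Bhlhe40, a clock repressor, was higher by 0.27 (adjusted p = 0.000472). The metallothioneins Mt1 and Mt2 differed by 0.045 and 0.078 and were not called. Of 8 housekeeping genes, Actb differed by 0.054 (95% interval -0.021 to 0.13) and Rplp0 by 0.007 (95% interval -0.086 to 0.10). Actb, Rplp0 and both metallothioneins read near the highest intensities on the arrays, with the same limit. Tbp (0.31, adjusted p = 0.0291) and Ywhaz (0.30, adjusted p = 0.021) were called higher, so differences of about this size also occurred in genes used as controls. Tbp lost its call without rosiglitazone replicates 1 or 3 or S273A replicates 1 or 2 (adjusted p = 0.0531 to 0.139) and in 5 other alternatives (adjusted p = 0.0509 to 0.525), and Ywhaz without rosiglitazone replicate 2 or S273A replicates 1 or 3 (adjusted p = 0.0582 to 0.0993) and in 2 other alternatives (adjusted p = 0.058 to 0.0718). Markers of endothelium, skeletal muscle, cartilage and bone, and neural cells had 0 calls among 4, 6, 5 and 6 tested members in limma's test, with 1, 0, 0 and 0 at an unadjusted p under 0.05. Of 12 epithelial markers, 8 were below the filter and 4 were tested. The keratin Krt18 (0.83, adjusted p = 1.17e-05) and the desmosome protein Pkp1 (0.76, adjusted p = 0.000692) were higher with rosiglitazone. The keratins Krt8 (-0.066) and Krt19 (-0.127) had differences of the other sign and were not called. For Pkp1, untreated wild-type cells (359 ± 70.2) were near the rosiglitazone level (302 ± 27.8), with S273A cells low (171 ± 15.1).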

How the data were processed

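Total RNA was measured on Affymetrix arrays. Intensity values were deposited by the authors on a linear scale. Their normalization is not given in the sources of this work. Of 22690 probe sets, 64 were controls and 20380 carried 1 gene symbol. The brightest stood for each of 12393 genes. Genes under the 30th percentile of gene means (132) were left out. Values were used as log2(intensity + 16), so differences of dim genes are understated, and folds are on that scale. Means ± SD are of intensities (n = 3).

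All 12 arrays were fitted in limma 3.58.1 (R 4.3.3; lmFit, eBayes with trend), with 4 group means and 8 residual degrees of freedom. The median 95% interval reached 0.17 log2 units either side. The procedure was tested on simulated data. Members, lists and alternatives were chosen with earlier results of these data known. Genes were named by rule: the 15 largest called differences each way with groups that did not overlap, the Ser273 genes, Pparg, and up to 4 called and 2 uncalled members of each list described. Other genes were picked after their values were seen. Promoter windows came from RefSeq. Figures used python 3.11.15 with matplotlib 3.10.9.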

Additional observations from a re-analysis of the deposited data

How the results depend on the processing

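Each of 24 alternatives changed 1 choice. The number of genes called was 829, and 721 to 1047 under other pseudocounts, filters, scalings, probe set rules, weights or the fit to the 6 arrays alone, except 664 without the trend. It was 529 to 1164 when 1 array was left out and 1133, added after results were seen, without all untreated wild-type arrays. Replicate number was not used to pair samples in the main fit. Rosiglitazone and S273A arrays of the same number had residual correlations of -0.055, 0.147 and -0.027. Those of different number had -0.09 to 0.111. These values cannot show whether arrays shared a culture or a batch. With the replicate block 712 genes were called, 695 of them shared. Of 132 named genes called, 72 kept their call under all 24 alternatives, 11 kept it wherever they were tested but passed not every filter, and 49 lost it in at least 1. The mean of all probe sets turned Tsc22d3 to -0.062 and Cdt1 to 0.032. Precision is limited by 3 arrays a group, and intensities near the array maximum or under the filter are least certain.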
